A study of Mus musculus with 2 samples.

Results

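The DNA replication machinery was examined in CH cells, small circulating cells that were sorted from the peripheral blood of healthy mice as lineage-negative, CD45-negative events positive for the DNA dye Vybrant. The members were 52 listed genes that license origins, unwind DNA, polymerise it, load the sliding clamp, supply nucleotides or protect the fork. Probe sets whose platform annotation names 1 of these genes and no other were taken, and 51 of the 52 genes had at least 1, out of 18193 genes measured in this way. Chaf1a had no such probe set and was not analysed here. RNA of pooled cells was hybridized to 2 whole-genome mouse arrays of Affymetrix, and nothing says how the pools were kept apart. Per the labels, each pool held cells of 15 C57bl/6 mice of both sexes at 7 months of age, while the methods give younger mice and smaller pools. All arrays belong to 1 group without treatment, so no condition was compared with another. The RNA is a bulk preparation of pooled cells, and fewer cells with a transcript cannot be told apart from less of it per cell.

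In each S phase a dividing cell copies its genome once. The origin recognition complex, Cdc6 and Cdt1 first place the Mcm2 to Mcm7 ring on origins, a kinase made of Cdc7 and Dbf4 then helps to start it, and Cdc45 and the GINS complex turn it into the active helicase. Primase and the polymerases synthesise the new strands behind it, held to DNA by the clamp PCNA. Many genes of this machinery are targets of E2F factors and are switched on as cells leave G1, and they are low in most resting blood cells.

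Signals are deposited log2 values, and the level of a gene is the mean over both arrays of its highest probe set, given as mean ± SD with n = 2 arrays. The number of arrays limits the precision of each level. Signals of different probe sets also depend on the affinity of their probes, so the levels do not rank genes by transcript number. Pearson's r between the arrays was 0.9967 over probe sets, which are not independent of each other, and the medians were 5.54 and 5.52. Of 6 leukocyte markers 4 were measured, with levels of 3.85 to 6.61, and 1 was above 5 on both arrays (Cd3e, at 6.61), while Ptprc, which encodes CD45, was at 4.95 and 5.24. Of 6 erythroid markers 4 were measured, with levels of 4.22 to 7.14, and 2 were above 5. Probe sets that read several globin genes lay between 4.83 and 7.50, the highest for Hba-a1 and Hba-a2, and the one for the Hbb genes was at 7.17. All 6 mesenchymal markers (7.47 to 14.27) and all 5 pluripotency markers (7.11 to 10.43) were above 5, as were 71.2% of all genes. The part of any cell type in the levels below was not tested.

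Nearly the whole machinery had a high signal in CH cells when each gene was read by its highest probe set. By the median over probe sets 68.6% of the members were above 8, against 25.1% of all genes. By the lowest probe set 51.0% were, against 17.6%. The counts that follow use the highest probe set. All 51 measured genes were above 5 (log2) on both arrays, where 71.2% of all genes were, and 45 were above 8, against 37.0% of all genes. A level above 10 was reached on both arrays by 22 members, while 14.9% of all genes reached it. The median level was 9.83 for the members and 6.84 for all genes. With limma, which pools the variance of all probe sets, 51 members were above 5 at an adjusted p under 0.05 (69.1% of all genes), and the largest adjusted p was 5.3e-06, for Clspn. Set against 8 in the same way, 45 members were above it (35.6% of all genes), 5 were below it and Clspn lay on neither side (adjusted p = 0.356). These counts are not independent of earlier results, since the genes were listed with levels of CH cells known. Among 77 genes of smell, taste and pheromone receptors, taken as background, 13 were above 5 (11 by limma), none was above 8, and the median was 4.10. The highest of them, Vmn1r44, had a level of 6.92 and was thus close to the level of the lowest member, Gins3 (7.04).

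**Figure D1:**
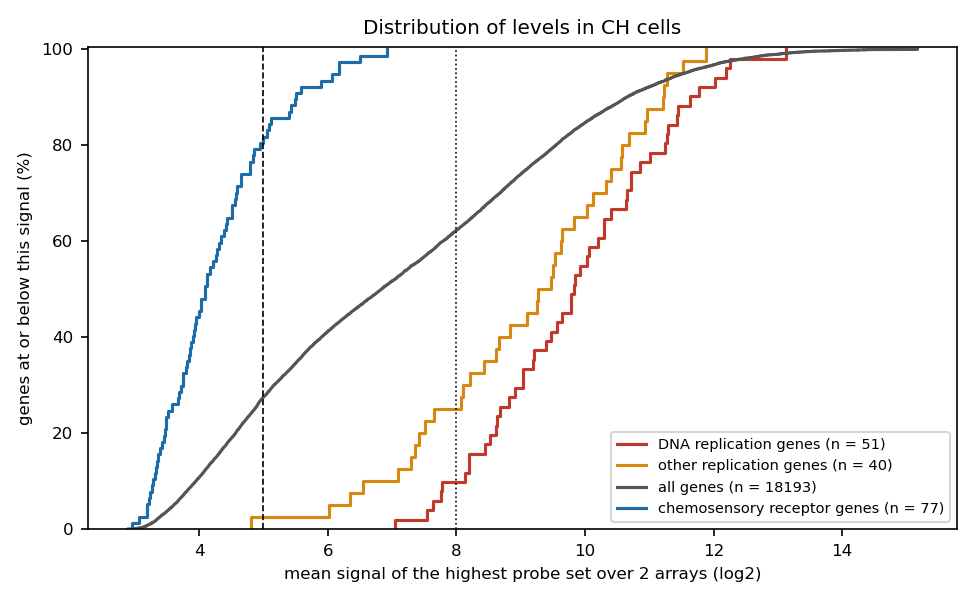
Cumulative share of genes (vertical axis, percent) at or below a mean log2 signal (horizontal axis) for 51 DNA replication genes, 40 other replication genes, all 18193 genes and 77 chemosensory receptor genes. The curve of the replication genes begins at 7.04, above the median of 6.84 of all genes, and the dashed and dotted lines mark 5 and 8.

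E2F factors bind short GC-rich sites in the promoters of replication genes, so promoters were searched for the words TTTCCCGC, TTTGGCGC, TTTCGCGC and TTTGCCGC on both strands. Promoters run from 250 bases before to 50 bases after the annotated start and come from RefSeq on GRCm38.p6. Those of a single autosome were left out of the search, so the shares below are not of the whole genome. Of the 52 listed genes, 43 were matched to 50 promoters by symbol, and Gins1, Gins2, Gins4, Gmnn, Mcm4, Pole, Prim2, Rfc2 and Tipin were not. One of the words was in 16 of these 50 promoters (32.0%) and in 2.26% of the 32851 promoters searched. CCAAT, the word bound by NF-Y, was in 56.0% of the members' promoters, against 37.4% of those searched. A match is a description of the sequence and not a sign of binding in CH cells.

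The 16 members with an E2F word were Mcm3, Mcm5, Mcm6, Mcm7, Mcm8, Gins3, Orc1, Orc3, Cdc6, Cdt1, Pola1, Pold1, Pold3, Pole2, Rfc3 and Clspn. Their median level in CH cells was 9.11 (7.04 to 12.25), and that of the 26 measured members with a promoter but no word was 9.96 (7.63 to 13.12). Over all measured genes with a promoter among those searched, the median was 8.31 for 550 genes with a word and 6.92 for 13902 without. Within the machinery, genes at both ends of the range carried a word, among them Mcm7 with a level of 12.25 and Gins3 with one of 7.04, while Pcna, at 13.12, had none in this window.

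More than 1 match was found in 5 promoters, of which 4 belong to subunits of the Mcm ring. They are shown, from the first to the last match, 5′ to 3′ along the gene and with up to 10 flanking bases before the start, because their matches are the most numerous among the members. Capitals mark the E2F words on either strand, and where matches overlap the capitals run together. The windows are chr1:20820267-20820293 (Mcm3, minus strand), chr8:75109346-75109377 (Mcm5, plus strand), chr1:128359735-128359825 (Mcm6, minus strand), chr5:138171860-138172058 (Mcm7, minus strand) and chr5:151651201-151651228 (Rfc3, minus strand).
Mcm3: GCGGGAAAacttgggaagtTTTGGCGC
Mcm5: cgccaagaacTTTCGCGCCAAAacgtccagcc
Mcm6: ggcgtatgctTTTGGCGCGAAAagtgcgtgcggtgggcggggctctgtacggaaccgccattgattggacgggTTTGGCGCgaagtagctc
Mcm7: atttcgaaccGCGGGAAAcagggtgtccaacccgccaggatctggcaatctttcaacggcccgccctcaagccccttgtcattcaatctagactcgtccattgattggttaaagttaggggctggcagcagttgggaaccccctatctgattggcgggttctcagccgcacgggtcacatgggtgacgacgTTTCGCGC
Rfc3: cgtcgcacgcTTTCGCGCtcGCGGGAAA
In Mcm5 and Mcm6, a word on the plus strand of the gene overlaps one on the minus strand. The Mcm3 matches lie after the annotated start, at positions 20 and 39, and those of Mcm5 before it, at -153 and -149. In Rfc3 a match lies before the start, at -10, and the next begins at position 1.

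Genes that license origins were measured in 11 of 11 cases, with 9 above 8 on both arrays and a median of 9.83. Cdt1, which brings the Mcm ring to origins, had signals of 12.24 and 12.14. Gmnn encodes geminin, the inhibitor that binds Cdt1 and prevents a second round of licensing, and had 10.63 and 10.80. Cdc6, the partner of Cdt1 in loading, had 8.37 and 8.54, and its level of 8.45 ± 0.12 was above 8 (adjusted p = 0.00248 from limma). Cdt1, its inhibitor and Cdc6 were thus above 8 on each array, with arrays that differed by no more than 0.17.

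Of the 6 subunits of the origin recognition complex, 5 were above 8. Orc5 was at 10.20 ± 0.09, Orc3 at 9.92 ± 0.06, Orc6 at 9.83 ± 0.07, Orc2 at 9.64 ± 0.04 and Orc4 at 9.47 ± 0.08. Orc1, the subunit whose protein is removed after S phase begins in mammalian cells, had 7.71 and 7.81 and was below 8 (adjusted p = 0.0237 from limma). By the median over probe sets Orc3 (7.77) and Orc4 (7.50) were below 8 as well, beside Orc1 (7.02). Dbf4, which activates the kinase Cdc7, had 10.84 and 10.86. Cdc7 itself had 7.77 on both arrays and was below 8 (adjusted p = 0.0219 from limma), and its other probe set was at 6.08. The other probe set of Dbf4 was at 3.58, and with the median over probe sets both genes were below 8 (7.21 for Dbf4 and 6.93 for Cdc7).

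The helicase genes had 13 of 13 members above 5 and 10 above 8, with a median of 10.04. All 6 subunits of the Mcm2 to Mcm7 ring were above 10 on both arrays, within a range of 10.71 to 12.25. Mcm7 had signals of 12.27 and 12.23, Mcm4 11.74 and 11.83, and Mcm6 11.65 and 11.62. Mcm5 had 11.28 and 11.27, Mcm2 10.93 and 11.09, and Mcm3 10.67 and 10.75. Mcm2, Mcm3, Mcm5 and Mcm7 had their highest signal with a probe set that ends in _s_at or _x_at, which can read further transcripts. Without such probe sets the levels were 10.32 for Mcm2, 10.03 for Mcm3, 9.89 for Mcm5 and 11.25 for Mcm7, so that all were above 8 but Mcm5 was no longer above 10.

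Of the 7 other helicase genes, 4 were above 8. Gins4 was at 10.04 ± 0.02, Gins2 at 9.78 ± 0.03 and Gins1 at 9.04 ± 0.005, and limma placed each of them above 8, while the other probe set of Gins1 was at 5.12 and that of Gins2 at 9.32. Gins3, the remaining subunit of the same complex, had 7.07 and 7.01 and was below 8 (adjusted p = 4.92e-05 from limma), and its other probe set, at 6.85, gave a like value. With the median over probe sets Gins1 (7.08) was below 8 as well, beside Gins3 (6.95). Cdc45, the partner of GINS, had 7.56 and 7.71 (adjusted p = 0.00575 below 8), with its other probe set at 6.10. Mcm10, a factor of origin firing, had a level of 8.61 ± 0.11, while its lower probe sets were at 5.23 and 4.93. Mcm8, a relative of the ring subunits that acts in homologous recombination, had 7.49 and 7.59 (adjusted p = 0.00166 below 8). Of the 5 members that limma placed below 8, 3 were thus in the helicase group and 2 in the licensing group. All 5 were above 5 by limma, and the largest of their adjusted p against 5 was 3.09e-06, for Gins3. The receptor gene Vmn1r44 of the background, at 6.92, passed the same limma test (adjusted p = 4.23e-06), so passing it does not set Gins3 apart from background.

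**Figure D2:**
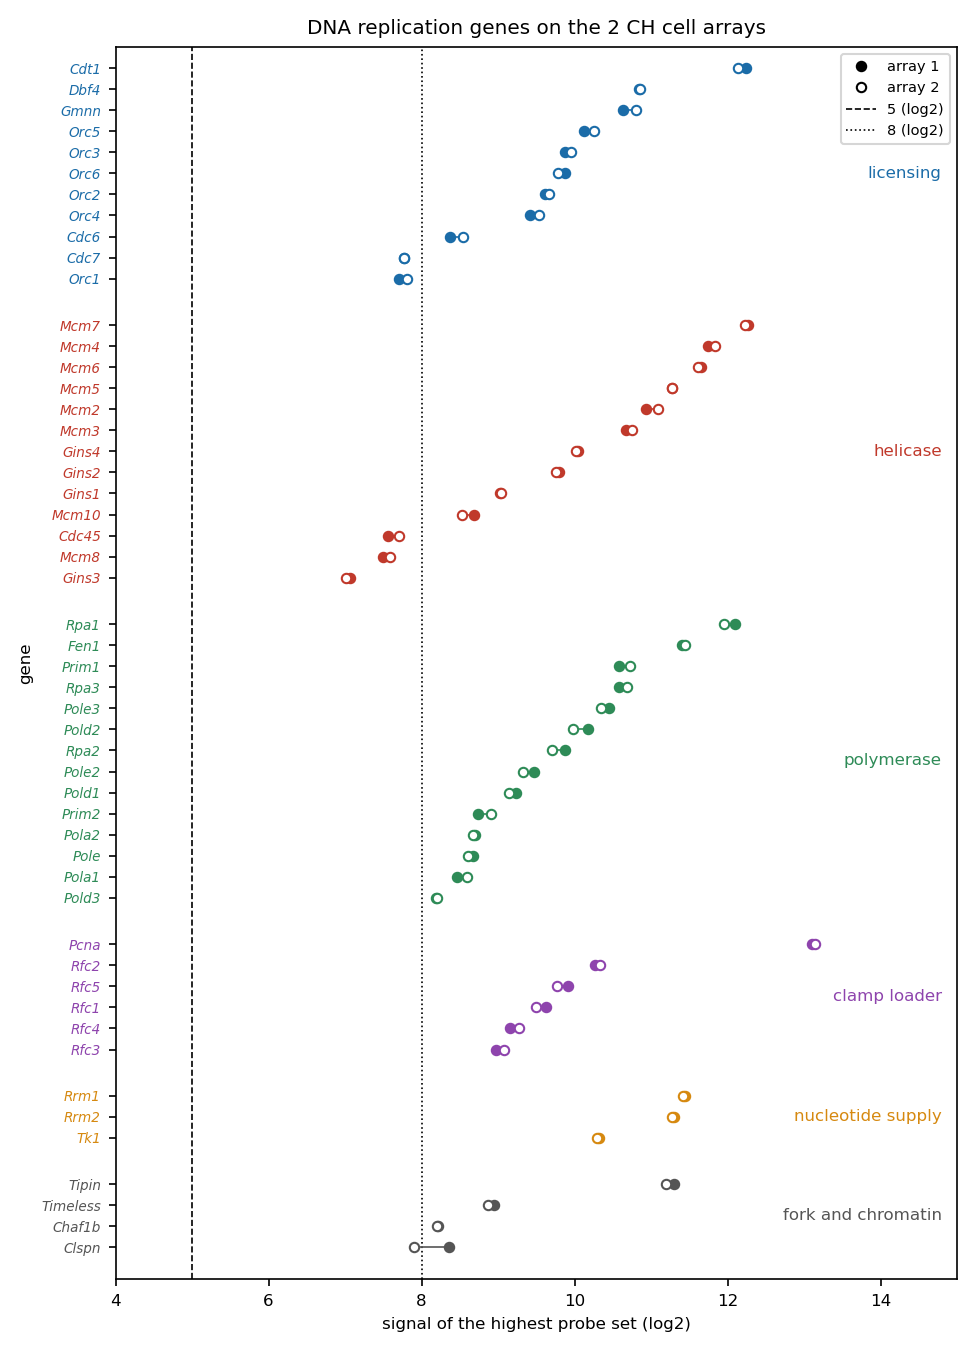
Log2 signal of the highest probe set of 51 DNA replication genes (horizontal axis) on array 1 (filled circles) and array 2 (open circles), grouped by role down the page and sorted by mean within a role. No circle lies left of the dashed line at 5, and Cdc7, Orc1, Cdc45, Mcm8 and Gins3 lie left of the dotted line at 8 with both circles, as Clspn does with 1.

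All 14 genes of the polymerases and of strand synthesis were above 8 on both arrays, with a median of 9.59. Rpa1, the large subunit of the protein that coats single-stranded DNA, had 12.10 and 11.96, Rpa3 had 10.58 and 10.69, and Rpa2 had 9.87 and 9.70. Fen1, which cuts the flaps of Okazaki fragments, had 11.41 and 11.45. Prim1, the catalytic subunit of primase, had 10.58 and 10.73, while its partner Prim2 had 8.74 and 8.91. The polymerase that extends the primers, polymerase alpha, was at 8.52 ± 0.09 for the catalytic subunit Pola1 and at 8.68 ± 0.02 for Pola2. By the median over probe sets Pola1 (6.29) was below 8 and Pola2 (4.78) was below 5.

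The subunits of the replicative polymerases delta and epsilon were all above 8. For delta, whose catalytic subunit is Pold1, Pold1 was at 9.19 ± 0.07, Pold2 at 10.07 ± 0.13 and Pold3 at 8.20 ± 0.01. For epsilon, whose catalytic subunit is Pole, the levels were 8.64 ± 0.04 for Pole, 9.40 ± 0.10 for Pole2 and 10.40 ± 0.07 for Pole3, a histone-fold subunit. Pold3 was the member closest to 8 among the 14 and remained above it with limma (adjusted p = 0.0381). By the median over probe sets Pold3 (7.99) and Pole2 (6.63) were below 8. Without probe sets ending in _s_at or _x_at, Pold1 was at 8.27, Fen1 at 10.49 and Pole3 at 10.30.

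Of the sliding clamp and its loader, 6 of 6 genes were above 8. Pcna, the clamp that holds polymerases on DNA and that many replication and repair proteins bind, had 13.10 and 13.14, at the 99.2nd percentile of the levels of all genes. The loader subunits lay between 9.03 ± 0.08 for Rfc3 and 10.30 ± 0.04 for Rfc2. Rfc1, the large subunit, was at 9.56 ± 0.10, Rfc4 at 9.21 ± 0.08 and Rfc5 at 9.84 ± 0.10. Lower probe sets were at 8.47 and 6.60 for Rfc2 and at 8.94 and 8.36 for Rfc1.

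The 3 genes of nucleotide supply were all above 10 on both arrays. Rrm1, the large subunit of ribonucleotide reductase, had 11.45 and 11.42, and its other probe sets were at 11.16 and 4.09. Rrm2, the small subunit of the enzyme that is made in S phase, had 11.30 and 11.28, and 10.79 and 9.99 were the levels of its other probe sets. Tk1, the cytosolic thymidine kinase, had 10.32 and 10.29. The arrays differed by at most 0.04 for the highest probe sets of these genes.

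Of the fork protection and chromatin genes, 4 of 5 were measured. Tipin, which forms a fork protection complex with Timeless, had 11.30 and 11.19, and Timeless had 8.95 and 8.87. Chaf1b, a subunit of the chromatin assembly factor that places histones on new DNA, had 8.21 and 8.20 (adjusted p = 0.0347 above 8 from limma). Clspn encodes claspin, which passes the signal of stalled forks to the checkpoint kinase Chk1, and had 8.36 on array 1 and 7.90 on array 2. The other probe set of Chaf1b was at 4.94. By the median over probe sets Chaf1b (6.57) and Clspn (6.83) were below 8, while Timeless (8.42) was above it.

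The arrays gave similar values for most of the machinery, and among the highest probe sets of the members that of Clspn differed most. A lower probe set of Pola2 differed more, with 4.66 on array 1 and 4.16 on array 2. The difference of array 2 minus array 1 had an SD of 0.12 over the members, 0.19 over all genes and 0.12 over the 6737 genes above 8 on both arrays. Of the 51 members, 24 were higher on array 2, and the median difference was -0.009. For the highest probe set of Clspn the difference was -0.46, while its other probe set had 5.46 on array 1 and 5.62 on array 2, the opposite direction. Of 2064 genes with a level within 0.5 of that highest probe set, 0.775% differed by 0.46 or more. The next largest among the highest probe sets were -0.19 for Pold2, 0.17 for Gmnn, 0.17 for Cdc6, -0.17 for Rpa2 and 0.17 for Prim2. With only 2 arrays, these differences were not tested.

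**Figure D3:**
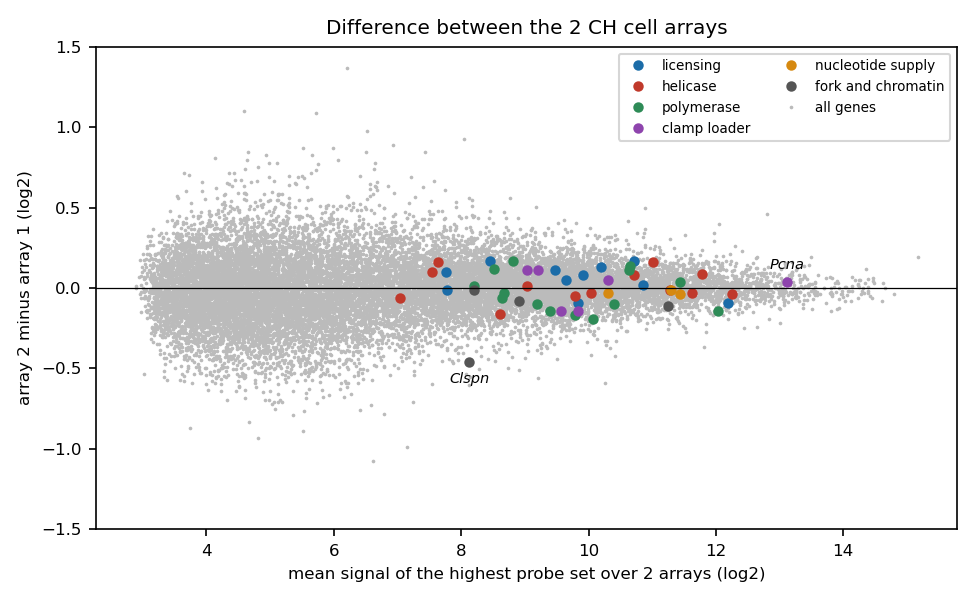
Difference of array 2 minus array 1 (log2, vertical axis) against the mean log2 signal (horizontal axis), each from the highest probe set of a gene. Coloured circles are 51 DNA replication genes by role and grey points are all genes. Clspn, at -0.46, lies apart from the other members, which stay within 0.19 of zero.

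Probe sets of the same gene often gave very different signals, which limits what the levels show. The members had 110 probe sets, 2.16 per gene against 1.92 over all genes, and 99 of the 110 (90.0%) were above 5 on both arrays, where 64.8% of all 34945 probe sets naming 1 gene were. Above 8 were 74 (67.3%), against 29.0% of all. Of the 38 members with several probe sets, the highest and the lowest differed by over 2 in 19 and by over 4 in 9, and the median difference was 1.89, against 2.06 for the 9010 genes with several. Cdt1 had probe sets at 12.19, 10.65 and 3.64, Mcm6 at 11.63, 9.95 and 3.40, and Rrm1 at 11.44, 11.16 and 4.09. Dbf4 had only a further one at 3.58, and Orc4 had its lowest at 3.59. Probe sets not above 5 on both arrays also belonged to Pole2, Pola1, Pola2, Mcm10 and Chaf1b. These 10 genes hold 11 such probe sets, of which 1 ends in _x_at and none in _s_at.

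With the lowest probe set of each gene, 41 members were still above 5 on both arrays and 26 above 8 (51.0%, against 17.6% of all genes treated alike), and the median was 8.27 for the members and 5.12 for all genes. With the median over the probe sets, 35 were above 8 (68.6%, against 25.1%). Cdt1, Mcm3, Mcm5, Mcm6 and Rrm1 are among the genes that were above 8 with their highest and not with their lowest probe set.

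**Figure D4:**
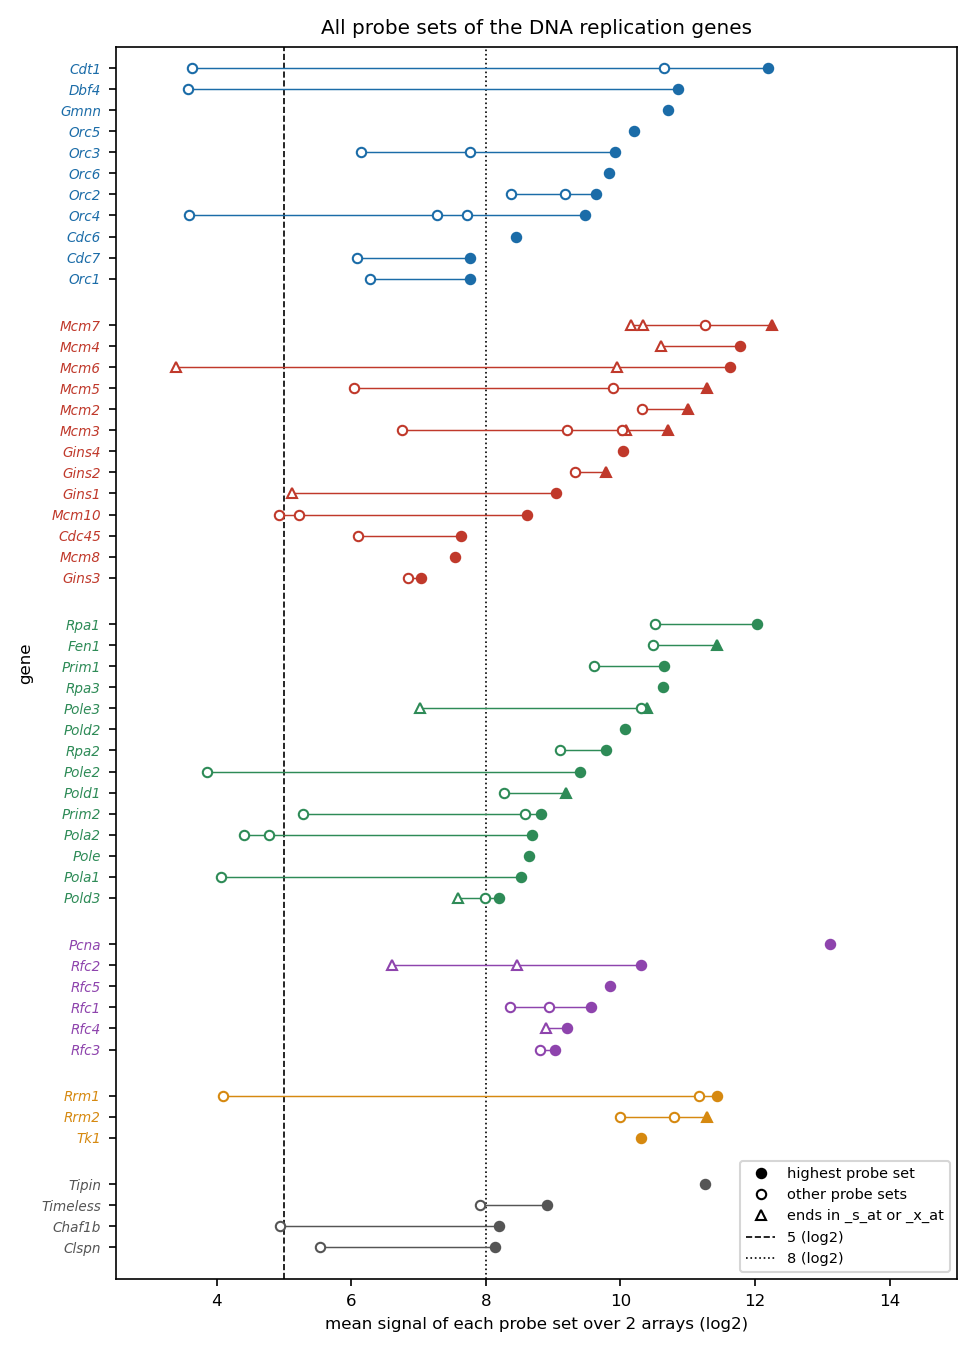
Mean log2 signal of all 110 probe sets of 51 DNA replication genes (horizontal axis), with 1 gene per line, a filled symbol for the highest probe set, open symbols for the others and triangles for probe sets ending in _s_at or _x_at. Genes such as Cdt1, Mcm6 and Rrm1 span both sides of the dashed line at 5.

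Other genes of DNA replication, which are not among the members, were measured in 40 of 43 cases. On both arrays 39 were above 5 and 29 above 8 (72.5%, against 37.0% of all genes), limma placed 27 above 8, and the median was 9.37. Top2a, the topoisomerase of dividing cells, was at 11.89 ± 0.002, Dtymk, the thymidylate kinase, at 11.52 ± 0.01, Asf1a, a histone chaperone, at 11.28 ± 0.11 and Ccna2, the cyclin of S phase and mitosis, at 11.23 ± 0.01. The lowest probe set was at 4.54 for Top2a and at 4.03 for Asf1a. By the median over probe sets Top2a (6.38) and Asf1a (7.65) were below 8, while Dtymk (11.37) and Ccna2 (11.03) were above it. The only gene not above 5 was Tyms, which encodes thymidylate synthase. Its 4 probe sets that name it alone reached 4.77 and 4.84 at most (adjusted p = 0.0465 below 5 from limma). A further probe set, which names Tyms together with its pseudogene Tyms-ps, had 10.27 and 10.14, and it cannot be assigned to either. The remaining genes of the list were not analysed here. Of the genes of the activating E2F factors, named after their values were seen, E2f1 was at 8.08, E2f2 at 6.34 and E2f3 at 8.10.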

How the data were processed

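Per the methods, the authors used RMA and quantile normalisation on the CH cell arrays and public arrays at once, and versions are not given in the sources used here. Whether the deposited log2 signals come from that run is not given either. Of 45101 probe sets, 64 controls were left out, 34945 named 1 gene, 932 named several and 9160 had no entry in the platform annotation. Symbols were checked through Entrez identifiers against GRCm38.p6. Each gene was represented by its probe set of highest mean. The means of 45037 probe sets were tested against 5, the limit of the methods for low genes, or against 8, by an intercept-only fit (limma 3.58.1, R 4.3.3), two-sided, with Benjamini-Hochberg adjustment over all of them at 0.05. The fit was tested on simulated data. Nothing says how the pools were kept apart, so p-values measure only the spread between these 2 arrays, which may be technical. The members and lists were chosen with earlier results of these data known. The rule named all members, the ends of each role group, the largest differences between arrays and between probe sets, and of other lists the 4 highest genes and those not above 5. Fork and chromatin genes were kept as a role of their own. Counts were repeated with the median or lowest probe set, without _s_at and _x_at probe sets, after quantile normalization, with other limits, with trended robust moderation and without each array. Tables and figures were made with Python 3.11.15, pandas 2.3.3 and matplotlib 3.10.9.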

Additional observations from a re-analysis of the deposited data

How the results depend on the processing

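No paired analysis was possible because all arrays belong to the same group. The counts of members above 5 (by limma and on both arrays) stayed within 1.5 times the reported value under every alternative run, as did the count above 8 without probe sets ending in _s_at or _x_at, after quantile normalization of both arrays together, and without either array (45 to 46). With the lowest probe set of a gene, 26 members and 15 of 40 other replication genes were above 8, where 17.6% of all genes were. With a limit of 10 the counts were 22 and 14, where 14.9% of all genes passed. With the median over probe sets, 19 other replication genes were above 8, where 25.1% of all genes were. The members' median was 9.18 with the median over probe sets and 8.27 with the lowest, and 9.77 to 9.88 without either array. A lower probe set or a higher limit can only reduce such counts. Which transcript a discordant probe set reads was not tested.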

Other observations

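Genes of mitosis, the division that comes after replication, were measured on the same arrays. Of 24 listed genes 23 were measured, all 23 were above 8 on both arrays, where 37.0% of all genes were, and their median was 10.04. With each gene at the median of its probe sets, 16 of the 23 were above 8, where 25.1% of all genes were. With the lowest probe set 12 were, against 17.6% of all genes. Both alternatives were chosen after seeing the data. Cdc20, the activator of the anaphase-promoting complex, was at 11.99 ± 0.01 (SD, n = 2 arrays), Mad2l1, a spindle checkpoint protein, at 11.96 ± 0.03, Cdk1, the mitotic kinase, at 11.56 ± 0.02, and Cenpa, the centromere histone, at 11.08 ± 0.05. The lowest probe set was at 3.68 for Cenpa, 3.77 for Aurka and 3.63 for Kif23. Mki67, which encodes the proliferation antigen Ki-67 and was named after its values were seen, had 10.55 on array 1 and 9.96 on array 2.

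Genes that restrain the cycle or supply nucleotides outside S phase were measured as well, and all 8 were above 5 (71.2% of all genes), with 5 above 8 (37.0% of all genes) and a median of 8.70. With the median over probe sets 3 of the 8 were above 8 (25.1% of all genes treated alike), and with the lowest probe set 2 (17.6% of all genes). Cdkn1a, the inhibitor p21, was at 11.03 ± 0.05, Cdkn1b, the inhibitor p27, at 9.99 ± 0.06, Cdkn1c, the inhibitor p57, at 9.20 ± 0.20 and Samhd1, which degrades nucleotides, at 8.73 ± 0.14. Rrm2b, the small subunit of ribonucleotide reductase that resting cells use, was named after its value was seen, and was at 8.66 ± 0.01. Rbl2 and Rb1, which hold E2F factors in check, had levels of 7.26 and 6.79, and limma placed both of them below 8. Whether transcripts of replication and of inhibitors of the cycle belong to the same cells was not tested.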
